A study of Mus musculus with 12 samples.

Results

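The genes described here lie on mouse chromosome 17 around Smchd1, the gene that was disrupted in this study, and were chosen by name only. They were the array probes whose target name equalled 1 of 53 gene names, without regard to case (the files write names in capitals, as in NDC80, NLRC4, EMILIN2 and C030034I22RIK). 45 of those names had a probe, which gave 45 genes and 96 of the 45281 probes of the array. 4 of the other 8 names are older or newer names of genes that did have probes, and Myl12a, Fer, Fam98a and Sult6b1 had no probe under their names. All 45 genes lie on chromosome 17 in the RefSeq gene table for GRCm38.p6, 41 matched by symbol and 4 by an older name (Epb41l3, Myl12b, Lclat1 and Zbtb14). There, 21 of the genes come before Smchd1 and 24 after it. The genes next to Smchd1 are Emilin2 and Ndc80, whereas Mettl4 lies 107 genes away and is not near it.

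Expression was measured in 12 end-stage lymphomas, 6 Smchd1 wildtype and 6 Smchd1 null, all in C57BL/6 mice with the Eµ-Myc transgene, in which the immunoglobulin heavy chain enhancer drives the Myc oncogene in B-lineage cells. The null lymphomas were also homozygous for a gene trap allele of Smchd1. The cells were purified by sorting, and neither the markers of the sort, nor the age or sex of the animals, nor the strain of the cells in which the trap was made is given in the sources used here. No label states that every replicate came from its own animal, so the spread behind a p-value is that of the samples and may be technical. The arrays sat on 2 BeadChips, glass slides with 3 arrays of each genotype. Wildtype replicates 1, 2 and 3 shared BeadChip 1 with null replicates 4, 5 and 6.

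Smchd1 encodes a protein of the structural maintenance of chromosomes family that helps to keep genes silent, above all on the inactive X chromosome, and also imprinted genes and clustered protocadherins. Genes beside a targeted gene are of interest for another reason. When a mutation is bred from one strain into another, DNA next to it can be carried along, and a base difference under an array probe can change the reading of that probe without any change of the transcript. A gene whose probes give unequal changes is therefore the pattern that was looked for, probe by probe. The files hold neither probe sequences nor genotypes, so such a base difference was not tested.

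On the log2 scale the Smchd1 probe ILMN_1242619 averaged 10.15 ± 0.31 over the 6 wildtype and 5.78 ± 0.67 over the 6 null arrays (SD), with no overlap. A second Smchd1 probe, ILMN_2853225, did not overlap either and was detected on 4 wildtype and 0 null arrays. A further one, ILMN_1230552, did overlap, at 4.58 to 7.17 against 4.70 to 6.16, with its lowest value in wildtype replicate 5 and a difference of -0.89 ± 0.44 (SE). Each array detected between 14905 and 17724 probes. Mean raw intensity was 523.9 to 599.1 on BeadChip 1 and lower, 254.6 to 468.8, on BeadChip 2. Each member probe was read on 19 to 75 beads per array, with a median of 42, and the number of arrays limits the precision. 5 B cell markers (BLK, CD22, CD79B, MS4A1 and PAX5) were all detected, CD79B on every array. Their mean log2 value was lowest in wildtype replicate 2 and null replicate 2, at 7.98 and 7.75, against 8.38 to 10.92 in the others. All 10 of their tested probes averaged lower in null lymphomas, by differences of -1.21 (BLK) to -0.12 (CD79B), and none of them passed or had an unadjusted p under 0.05. The part of B cell content in the values below was not tested. 3 samples stood apart on the T cell list, namely wildtype replicates 1 and 6 at 8.22 and 8.13 and null replicate 1 at 9.999, against 4.84 to 6.56 in the others, although CD8A was detected on no array. Wildtype replicates 1 and 6 were also high on the NK cell list, at 7.97 and 7.52 against 5.41 to 6.44, with NCR1 detected on no array. No probe of either list passed the test between the genotypes.

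The promoters of 4 members that the results turn on are printed first. C030034I22Rik and Nlrc4 are the members with the largest differences between the genotypes, Ndc80 is the nearest gene to Smchd1 that was detected on every array, and Ndufv2 is a far member that was also detected on every array. Each window runs from 250 bases before to 50 after the RefSeq transcript start in GRCm38.p6 and is written 5′ to 3′ on the strand of the gene. Capitals mark the dinucleotide CG, which reads the same on both strands and is the site of DNA methylation in mammals.
C030034I22Rik chr17:69416197-69416496 (+ strand): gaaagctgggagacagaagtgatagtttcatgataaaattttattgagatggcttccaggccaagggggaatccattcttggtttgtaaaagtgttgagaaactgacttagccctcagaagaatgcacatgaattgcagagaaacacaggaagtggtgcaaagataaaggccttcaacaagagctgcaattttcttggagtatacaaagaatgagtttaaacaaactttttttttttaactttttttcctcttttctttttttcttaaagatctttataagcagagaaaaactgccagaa
Nlrc4 chr17:74459059-74459358 (- strand): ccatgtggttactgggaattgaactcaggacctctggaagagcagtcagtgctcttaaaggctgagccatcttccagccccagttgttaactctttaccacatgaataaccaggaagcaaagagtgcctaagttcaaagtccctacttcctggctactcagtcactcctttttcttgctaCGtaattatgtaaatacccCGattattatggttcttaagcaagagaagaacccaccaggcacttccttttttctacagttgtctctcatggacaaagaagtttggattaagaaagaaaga
Ndc80 chr17:71526808-71527107 (- strand): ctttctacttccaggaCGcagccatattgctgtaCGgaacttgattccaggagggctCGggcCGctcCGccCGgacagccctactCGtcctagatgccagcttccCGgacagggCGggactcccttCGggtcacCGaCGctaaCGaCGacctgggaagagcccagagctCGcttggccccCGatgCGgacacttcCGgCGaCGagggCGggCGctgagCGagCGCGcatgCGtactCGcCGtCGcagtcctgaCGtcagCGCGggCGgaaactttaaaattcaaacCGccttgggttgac
Ndufv2 chr17:66101510-66101809 (- strand): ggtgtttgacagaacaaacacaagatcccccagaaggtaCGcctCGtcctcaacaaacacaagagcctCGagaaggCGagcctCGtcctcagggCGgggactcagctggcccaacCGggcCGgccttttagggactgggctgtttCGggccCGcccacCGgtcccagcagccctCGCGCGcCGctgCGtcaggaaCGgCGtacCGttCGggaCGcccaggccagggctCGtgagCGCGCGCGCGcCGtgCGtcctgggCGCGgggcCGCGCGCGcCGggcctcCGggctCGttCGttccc
The C030034I22Rik window held 0 CG dinucleotides, the Nlrc4 window 2, the Ndc80 window 34 and the Ndufv2 window 39. Of all 32851 RefSeq promoter windows of this length in the table, 94.6% held at least 1 CG.

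Of the 96 member probes, 57 probes of 37 genes were detected on at least 3 of the 12 arrays and were tested. The test compared null with wildtype by limma on log2 values, with adjustment over all 18921 probes tested on the array and a threshold of 0.05. 1 member probe passed, ILMN_1245711 of C030034I22Rik, which was lower in the null lymphomas. Over the whole array 3 probes passed, which is 0.0159% of those tested, and 2 of them (0.0106%) were lower. The median change of the 57 member probes was -0.036 on the log2 scale, against -0.0029 for all probes tested. The median size of their change without regard to sign was 0.151, close to the 0.147 of all probes. 50 of the 57 changed by less than 0.5 (87.7%), against 92.9% of all probes. 34 were lower and 23 higher in null lymphomas, so 59.6% were lower against 50.5% of all probes.

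An unadjusted p under 0.05 was found for 5 of the 57 member probes (8.77%), where 1.43% of all probes tested had one. 4 of the 5 were lower (all probes: 0.682%), namely C030034I22Rik, Nlrc4, Yipf4 and Man2a1, and 1 was higher, Emilin2 (all probes: 0.75%), which was tested only because null arrays detected it, so nothing is read from its count. Apart from C030034I22Rik, their adjusted p by limma was 1.00 in each case, so they did not pass. The moderated standard error of a member probe had a median of 0.28, so differences of the usual size of a member were smaller than the error of the comparison.

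**Figure D1:**
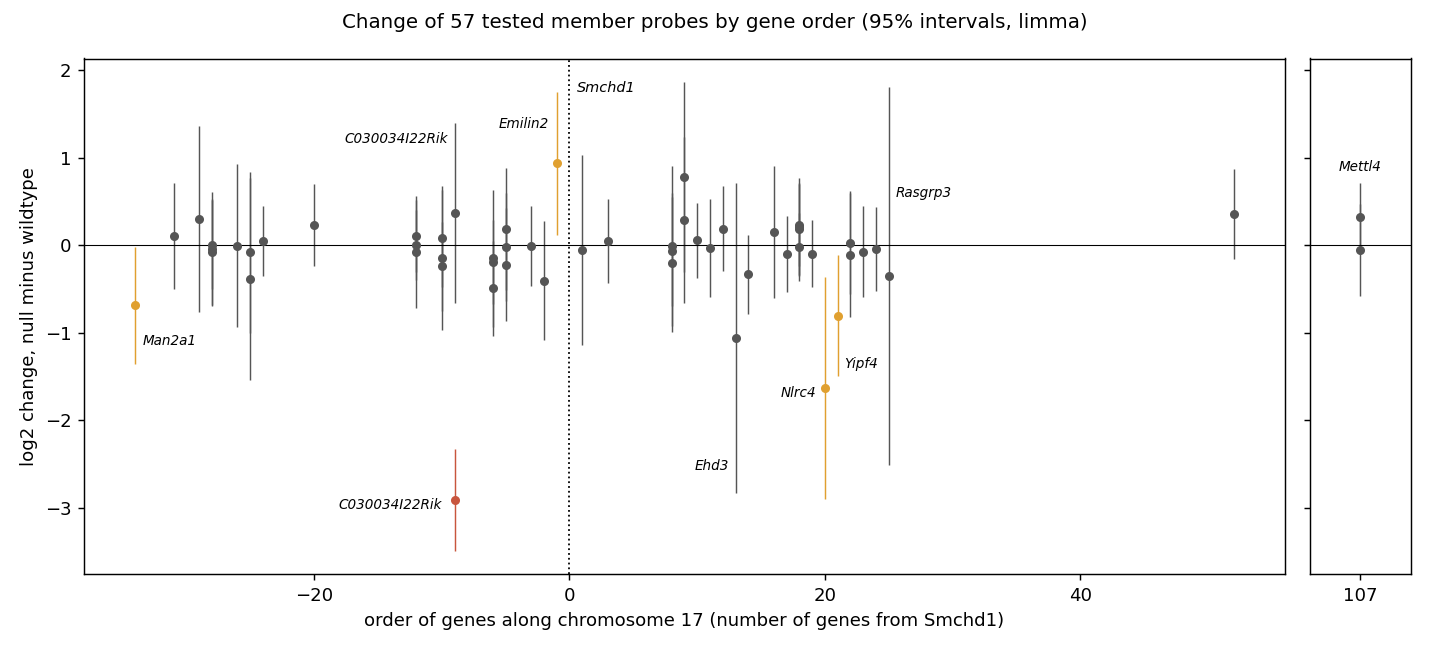
Change of the 57 tested member probes between null and wildtype lymphomas (y axis, log2, limma estimate with its 95% interval) against the order of genes along chromosome 17 counted from Smchd1 (x axis, in genes). Red marks the probe that passed the adjusted threshold (C030034I22Rik, -2.91), orange the 4 others with unadjusted p under 0.05 and grey the rest; the second C030034I22Rik probe stands at 0.37 above the same position.

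C030034I22Rik is annotated as a long non-coding RNA gene between Zbtb14 and Akain1, 9 genes from Smchd1, for which the annotation used here gives no function. It had 2 probes. Probe ILMN_1245711 read 8.14, 6.92, 8.39, 7.18, 8.21 and 7.77 in wildtype replicates 1 to 6, as log2 intensity, and 4.76, 4.94, 5.41, 4.60, 4.62 and 4.83 in null replicates 1 to 6. Every null value lay below every wildtype value, with a gap between 5.41 and 6.92. It was the only member probe whose groups did not overlap, and over all probes tested 0.0529% separated in this direction and 0.0793% in either.

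This C030034I22Rik probe averaged 7.77 ± 0.60 over wildtype and 4.86 ± 0.30 over null lymphomas (SD, 6 samples each), a change of -2.91 ± 0.27 (SE) or 7.52-fold, with an adjusted p of 0.000578 by limma. The probe was detected on all 6 wildtype arrays and on 1 null array, that of replicate 3, so the fold rests on readings near background on the null side. Before any correction the raw intensities were 178.7 to 574.4 in wildtype and 92.2 to 125.7 in null lymphomas, each read on 38 to 70 beads. Without background correction the change was -1.31 in place of -2.91, so its size depends strongly on that step. It still passed (adjusted p = 0.0209 by limma). On BeadChip 1 alone the change was -3.14 and on BeadChip 2 alone -2.69, and neither passed with 3 samples a group (adjusted p = 0.999 and 0.662). When each sample was left out in turn, it ranged from -3.08 to -2.79. In bulk RNA, fewer cells that express a gene and less RNA per cell cannot be told apart.

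The second C030034I22Rik probe, ILMN_1238113, gave another picture. It read 5.63, 5.77, 7.54, 5.19, 6.13 and 4.62 in wildtype replicates 1 to 6 and 5.84, 4.80, 6.88, 6.30, 6.09 and 7.17 in null replicates 1 to 6. These values overlapped over most of their range, and the probe was detected on 5 arrays of each group. Its change was 0.37 ± 0.48 (SE), with a 95% interval of -0.66 to 1.40. The probe averaged 5.81 in wildtype lymphomas, while the lowest detected log2 value of an array was 4.83 to 5.15. A log2 fall of the size seen with the first probe was thus beyond its reach. Its readings did not fall to background in null lymphomas, where they averaged 6.18. The interval does not exclude a moderate change in either direction.

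The change of ILMN_1245711 minus that of ILMN_1238113, taken within each lymphoma, was -3.28. By the exact two-sided permutation test over the 924 ways to split the samples, p was 0.00216, the smallest that these groups can give. After adjustment over the 29 probe pairs of member genes it was 0.0628, which does not pass, and no single pair could have gone lower. A fit chosen after these values were seen, limma over all 8738 pairs of tested probes of 1 gene on the array, gave -3.28 ± 0.43 (SE), a 95% interval of -4.20 to -2.36 and an adjusted p of 0.00974. In that fit 2 pairs of the array passed (0.0229%). The other was a pair of Smchd1 itself, ILMN_1242619 against ILMN_2853225, at -3.57. Both Smchd1 probes were lower in null lymphomas, but ILMN_2853225 averaged only 5.26 in wildtype and was detected on 0 null arrays. In both pairs the dimmer probe had little room to fall (ILMN_1238113 averaged 5.81 in wildtype). The size of either difference therefore also depends on the level of that probe. The 2 dimmer probes did not behave alike. ILMN_2853225 changed by -0.80 to a null mean of 4.46. ILMN_1238113 changed by 0.37 to a null mean of 6.18 and was detected on 5 null arrays. 4 pairs of the array differed by more than 3 in size, and the C030034I22Rik pair ranked 3 among them. Without background correction its difference was -1.44 (adjusted p = 0.00817).

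**Figure D2:**
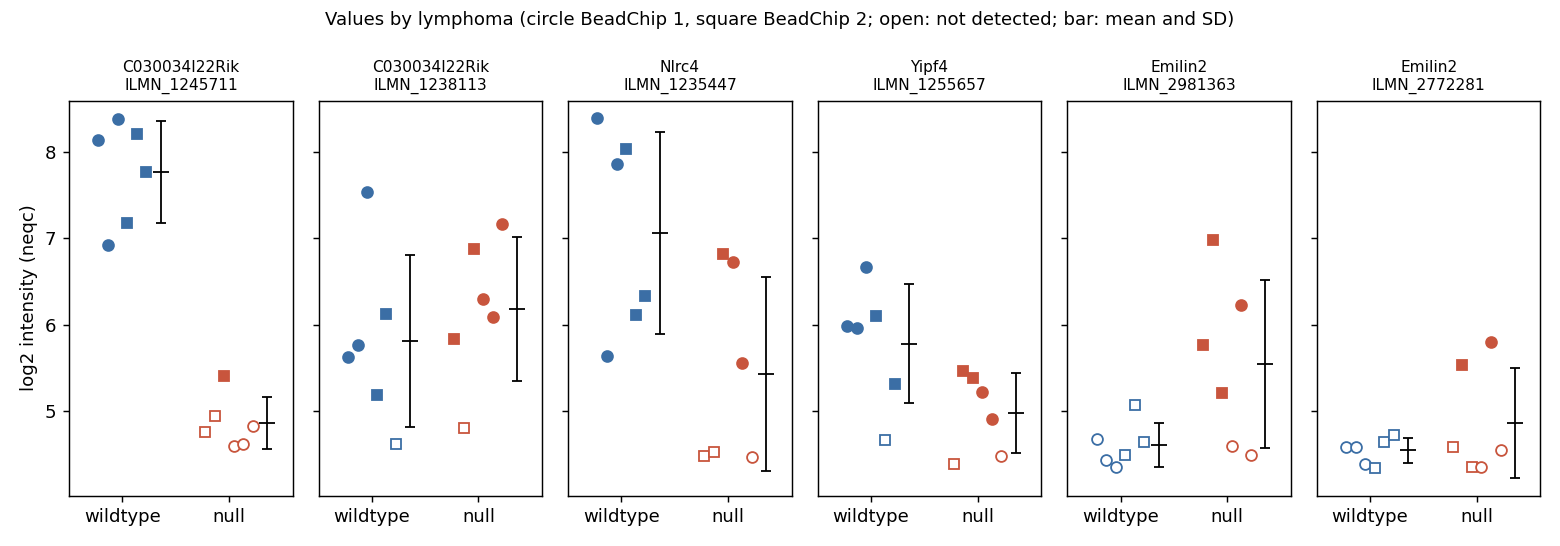
Log2 intensity (y axis) of 6 member probes in each lymphoma, wildtype and null, with circles for BeadChip 1, squares for BeadChip 2, open symbols where the probe was not detected and bars for the mean and SD. The C030034I22Rik probe ILMN_1245711 separates the groups (6.92 to 8.39 against 4.60 to 5.41), whereas its second probe and the probes of Nlrc4, Yipf4 and Emilin2 overlap.

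Nlrc4 and Yipf4 are neighbours, 20 and 21 genes from Smchd1. Nlrc4 encodes a sensor that assembles an inflammasome in macrophages. Its 1 probe read 8.39, 5.64, 7.86, 8.03, 6.11 and 6.33 in wildtype replicates 1 to 6 and 4.48, 4.52, 6.82, 6.73, 5.56 and 4.47 in null replicates 1 to 6. The groups overlapped, since null replicates 3 and 4 read above wildtype replicates 2, 5 and 6, and the probe was detected on 6 wildtype and 3 null arrays. The difference was -1.63 ± 0.59 (SE, unadjusted p = 0.0156 by limma) and was close on the 2 BeadChips, at -1.71 and -1.55. It was -0.74 without background correction, with an unadjusted p of 0.0236.

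Macrophage markers overlapped between the genotypes. 13 of the 14 genes of the macrophage and monocyte list were tested, and their mean log2 value was 5.34 to 6.87 in wildtype and 5.47 to 7.76 in null lymphomas, with 0 probes called. CSF1R, the receptor that defines the lineage, was detected on 3 arrays of each group. The highest list value, 7.76, was in null replicate 2, where the Nlrc4 probe read 4.52 and was not detected. The part of these cells in the Nlrc4 difference was not tested.

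Yipf4 encodes a membrane protein of the Golgi. Its probe read 5.99, 5.96, 6.66, 6.10, 4.67 and 5.32 in wildtype and 4.39, 5.47, 5.39, 5.23, 4.91 and 4.49 in null replicates 1 to 6. Values in the null group were within the lower part of the wildtype range or just under it, and the probe was detected on 5 and 4 arrays. The difference was -0.80 ± 0.32 (SE, unadjusted p = 0.0265 by limma). It was -1.33 on BeadChip 1 and -0.28 on BeadChip 2, and -0.28 over all arrays without background correction.

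Emilin2, the gene next to Smchd1 on one side, encodes a glycoprotein of the extracellular matrix. Detection of its probe ILMN_2981363 was limited to 4 null arrays, with 0 in wildtype, so it entered the test through the null group alone. It read 4.36 to 5.07 in wildtype, with a median of 4.57, and 5.76, 6.98, 5.21, 4.59, 6.23 and 4.49 in null replicates 1 to 6. 4 null lymphomas lay above all wildtype lymphomas and 2 lay among them. The measured means were 4.61 ± 0.25 and 5.55 ± 0.97 (SD, n = 6 each), a difference of 0.93 ± 0.38 (SE, unadjusted p = 0.028 by limma). No wildtype array detected it. Set against the lowest detected value of each wildtype array, the null mean was 1.47-fold higher. That mean includes the readings of null replicates 4 and 6, which did not detect the probe, so the fold is not a lower bound. The difference was 0.33 without background correction, 0.62 on BeadChip 1 alone and 0.49 without replicates 1 and 2 of both groups. The second Emilin2 probe, ILMN_2772281, was detected on 2 null arrays only and was not tested. The macrophage list was highest in the null sample in which Emilin2 was highest (replicate 2). Next on that list were wildtype replicates 2 and 1 (6.87 and 6.73), where ILMN_2981363 read 4.43 and 4.68 and was not detected. Null replicate 5 followed (6.58), where the probe read 6.23. The part of macrophages in the difference was not tested.

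Ndc80, the nearest gene on the other side, encodes a kinetochore protein that binds spindle microtubules in mitosis. It had a wide range among the lymphomas, with 6.82, 8.19, 8.88, 8.57, 7.83 and 8.32 in wildtype and 6.42, 7.01, 8.46, 9.66, 8.17 and 8.56 in null replicates 1 to 6. Wildtype replicate 1 and null replicate 1 were the lowest of their groups. The difference between the groups was -0.055 ± 0.50 (SE), and its sign differed between the BeadChips, at 0.83 and -0.95. The other Ndc80 probe, ILMN_1227733, was detected on 1 array.

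The next genes on either side also had group values that overlapped. Lpin2, a phosphatidate phosphatase, read 4.77 to 6.57 with a median of 5.96 in wildtype and 4.61 to 5.98 with a median of 5.55 in null lymphomas, a difference of -0.41 ± 0.31 (SE). Myom1, a protein of the muscle sarcomere, read 4.34 to 5.39 and 4.46 to 5.30 and was detected on 2 arrays of each group, so it was at background in most lymphomas. Wdr43, a nucleolar protein of ribosome biogenesis, was detected on every array. It read 10.13 to 11.20 with a median of 10.68 in wildtype and 10.29 to 11.20 with a median of 10.80 in null lymphomas, a difference of 0.049 ± 0.22 (SE). The intervals of these 3 genes, -1.08 to 0.27, -0.47 to 0.45 and -0.43 to 0.53, all include 0. That of Wdr43 bounds the change that these arrays allow. Changes near background are compressed, so the intervals of Lpin2 and Myom1 bound the measured values only.

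By side, 1 of 28 tested probes of genes before Smchd1 and 0 of 29 of genes after it were called. The median changes were -0.032 and -0.036. Within 10 genes of Smchd1, 22 probes had a median change of -0.038 and a range of -2.91 to 0.93, and the 35 probes farther away had a median of -0.036 and a range of -1.63 to 0.35. Distance from Smchd1 was counted in protein-coding genes and members of the list.

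Among the members of the cytoskeleton and of cell division, 12 tested probes changed by -0.22 to 0.23 and none passed. Spast, which severs microtubules, had 3 probes on all arrays with changes of 0.19, 0.21 and 0.23, and 1 probe detected on 6 arrays at -0.023. Its probe ILMN_2637784 read 6.61 to 7.80 with a median of 7.27 in wildtype and 7.28 to 7.84 with a median of 7.41 in null lymphomas. Myl12b, a regulatory light chain of non-muscle myosin, read with ILMN_2953531 11.67 to 12.87 in wildtype and 11.56 to 13.19 in null lymphomas. That probe differed by -0.021 ± 0.28 (SE). The other Myl12b probes, ILMN_2710185 and ILMN_2710186, read 7.68 to 9.85 and 8.58 to 10.53 in wildtype and 8.28 to 9.04 and 8.99 to 10.10 in null lymphomas. Epb41l3, which links membrane proteins to actin, was detected on at most 6 arrays by any of its probes.

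Of the members of membrane traffic and lipid synthesis, 9 probes were tested and none passed. Man2a1, the Golgi mannosidase that trims N-glycans, read 11.25, 9.84, 10.29, 10.14, 10.26 and 10.64 in wildtype and 10.53, 8.76, 9.83, 9.90, 9.23 and 10.06 in null replicates 1 to 6. 3 null lymphomas fell below the lowest wildtype value and 3 lay within the wildtype range. The difference was -0.69 ± 0.31 (SE, unadjusted p = 0.0451 by limma), at -0.73 on BeadChip 1 and -0.64 on BeadChip 2. Rab12, a small GTPase of endosomal transport, read 6.48 to 7.28 in wildtype and 6.60 to 7.76 in null lymphomas, a difference of 0.24 ± 0.22 (SE), which was 0.099 without null replicate 1.

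Rab31, another such GTPase, and Ehd3, a protein of endosome recycling, varied more between lymphomas than between genotypes. Rab31 read 8.27 to 11.23 in wildtype and 8.08 to 10.74 in null lymphomas. Ehd3 read 7.31, 8.60, 4.80, 7.35, 4.46 and 7.43 in wildtype and 7.61, 7.64, 4.78, 4.33, 4.88 and 4.35 in null replicates 1 to 6. Ehd3 was thus either above 7 or at background, with 4 wildtype and 2 null lymphomas in the upper part, and the difference of -1.06 ± 0.82 (SE) did not pass. On BeadChip 1 the Ehd3 difference was -2.39 and on BeadChip 2 it was 0.26.

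Rasgrp3, an exchange factor for Ras in B cells, had the largest error of all tested members. It read 9.83, 5.81, 5.44, 4.34, 4.54 and 6.94 in wildtype and 9.22, 4.97, 4.44, 4.90, 6.90 and 4.37 in null replicates 1 to 6. The 2 highest samples, wildtype replicate 1 and null replicate 1, were also 2 of the 3 samples high on the T cell list, and the part of T cells in these values was not tested. The difference was -0.35 ± 1.00 (SE). The other signalling members were steadier, and none of the 6 tested probes of this group passed. Ppp4r1, a regulatory subunit of protein phosphatase 4, changed by -0.080 to 0.0075 over 3 probes, Twsg1, which binds bone morphogenetic proteins, by -0.0059, and Memo1 by 0.15.

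Members with roles in transcription, chromatin and RNA gave 18 tested probes, 13 lower and 5 higher, and none passed. Lbh, a transcription cofactor, had the largest positive difference after Emilin2, and its probe ILMN_1233545 read 10.30, 7.62, 8.80, 9.001, 8.75 and 8.92 in wildtype and 11.69, 8.51, 9.82, 9.37, 9.40 and 9.27 in null replicates 1 to 6. The second Lbh probe, ILMN_2816180, read 12.88, 10.26, 11.20, 10.94, 10.73 and 11.28, and 12.93, 10.62, 11.30, 11.51, 11.49 and 11.15. Both were highest in replicate 1 of each genotype and lowest in replicate 2. The differences were 0.78 ± 0.50 and 0.29 ± 0.44 (SE), and 0.38 and 0.0010 without null replicate 1. Without wildtype replicate 1 the second was 0.62.

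Tgif1, a homeobox repressor, had 3 probes with differences of -0.15, -0.19 and -0.49. The last, ILMN_2767113, was near background and read 4.68 to 5.99 with a median of 5.69 in wildtype and 4.53 to 5.40 with a median of 4.95 in null lymphomas. Mettl4, an adenine methyltransferase, read 7.17 to 7.94 in wildtype and 7.76 to 8.35 in null lymphomas with ILMN_3163504, a difference of 0.32 ± 0.18 (SE). With ILMN_2743985 it read 5.79 to 7.07 and 6.22 to 7.24, a difference of -0.055 ± 0.24 (SE). Ypel5, a protein of a ubiquitin ligase complex, read 7.33 to 9.48 and 7.26 to 9.07 with ILMN_1251071, and 7.18 to 9.28 and 6.26 to 8.78 with ILMN_1215341. Its other probe, ILMN_2951446, read 4.31 to 6.03 and 4.34 to 5.24 and was detected on 1 wildtype and 2 null arrays. The 3 Ypel5 differences were -0.20, -0.012 and -0.072. Dpy30, a subunit of the histone H3 lysine 4 methyltransferase complexes, changed by -0.097 ± 0.20 (SE) and Zbtb14, a zinc finger factor, by -0.24 to 0.078 over 3 probes.

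Among enzymes and transporters, Ndufv2, a subunit of respiratory complex I, read 11.92 to 12.88 in wildtype and 12.51 to 12.89 in null lymphomas. Slc30a6, a zinc transporter of the Golgi, had the smallest spread of the members detected everywhere. Xdh, the xanthine dehydrogenase of purine breakdown, was detected in 2 wildtype lymphomas and 1 null lymphoma and read 4.65 to 5.46 and 4.38 to 5.21, a difference of -0.33 ± 0.21 (SE). Morn2 was detected on 1 wildtype and 4 null arrays and read 4.37 to 5.16 and 4.33 to 5.61, a difference of 0.35 ± 0.24 (SE). Birc6, an inhibitor of apoptosis, was detected on 2 wildtype and 3 null arrays by each of its 2 tested probes, whose differences were -0.11 and 0.025. None of these 5 genes had an unadjusted p under 0.05.

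8 genes could not be compared. No probe of Alk, Arhgap28, Dlgap1, Lama1, Srd5a2 or Txndc2 was detected on any array. Clip4 was detected on 1 array, and 2 Ptprm probes were detected on 1 array each. These include a receptor kinase, a receptor phosphatase, a laminin chain and a postsynaptic scaffold, all known chiefly from other tissues. Not being detected by these probes does not show that the genes were silent.

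12 genes had at least 2 tested probes, which made 29 pairs. In 28 pairs the 2 changes differed by less than 0.5, and the median size of the difference was 0.19. 15 pairs agreed in sign. In 14 pairs, of 8 genes, both probes were detected on all arrays. These differed by 0.018 to 0.49 in size, and 9 of them agreed in sign. The other pairs held a probe not detected on every array, and changes near background are compressed, so little is read from their closeness. Only the C030034I22Rik pair differed by more than 0.5, and the second largest difference was 0.49, between the probes of Lbh. 3 further pairs had an unadjusted p under 0.05 by the exact permutation test, and all of them were detected on every array. By that exact test they were Lbh (-0.49, p = 0.0325, adjusted 0.314), Myl12b ILMN_2710186 against ILMN_2710185 (0.41, p = 0.0325, adjusted 0.314) and Mettl4 (0.37, p = 0.0498, adjusted 0.361), so none passed. In the limma fit over all pairs of the array, 1.90% had an unadjusted p under 0.05. By that limma fit 2 member pairs had one, C030034I22Rik and Lbh, and the Myl12b and Mettl4 pairs above did not. The share by limma is therefore not set against the count by the exact permutation test.

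**Figure D3:**
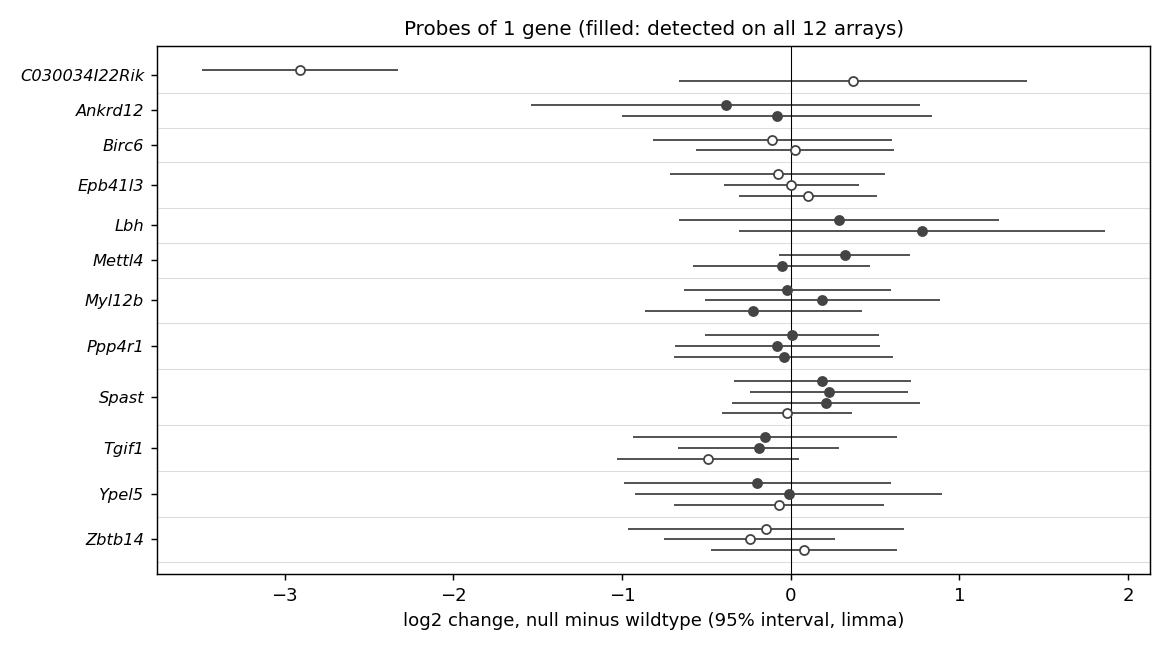
Change between null and wildtype lymphomas (x axis, log2, limma estimate with its 95% interval) of each tested probe of the 12 member genes with at least 2 tested probes, filled where the probe was detected on all 12 arrays. The 2 C030034I22Rik intervals do not meet, at -3.49 to -2.33 and -0.66 to 1.40, while the probes of each other gene overlap.

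20 member genes had a probe on all 12 arrays, and their spread over the lymphomas ran from an SD of 0.24 in Slc30a6 to 1.01 in Ankrd12, a nuclear ankyrin repeat protein. Wildtype replicates 1 and 2 were each the lowest sample for 6 of the 20 genes, and wildtype replicate 2 was also 1 of the 2 samples lowest on the B cell markers. Null replicate 4 was the highest for 6 and null replicate 1 for 5. Wildtype replicate 1 and null replicate 1 shared high values of Ankrd12 (9.32 and 9.72), of Lbh and of Myl12b and low values of Ndc80. These are 2 of the 3 samples that were high on the T cell list, and the part of T cells in this pattern was not tested. The difference of the called C030034I22Rik probe was as large without replicates 1 and 2 of both groups, at -3.02 (adjusted p = 0.0121 by limma).

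**Figure D4:**
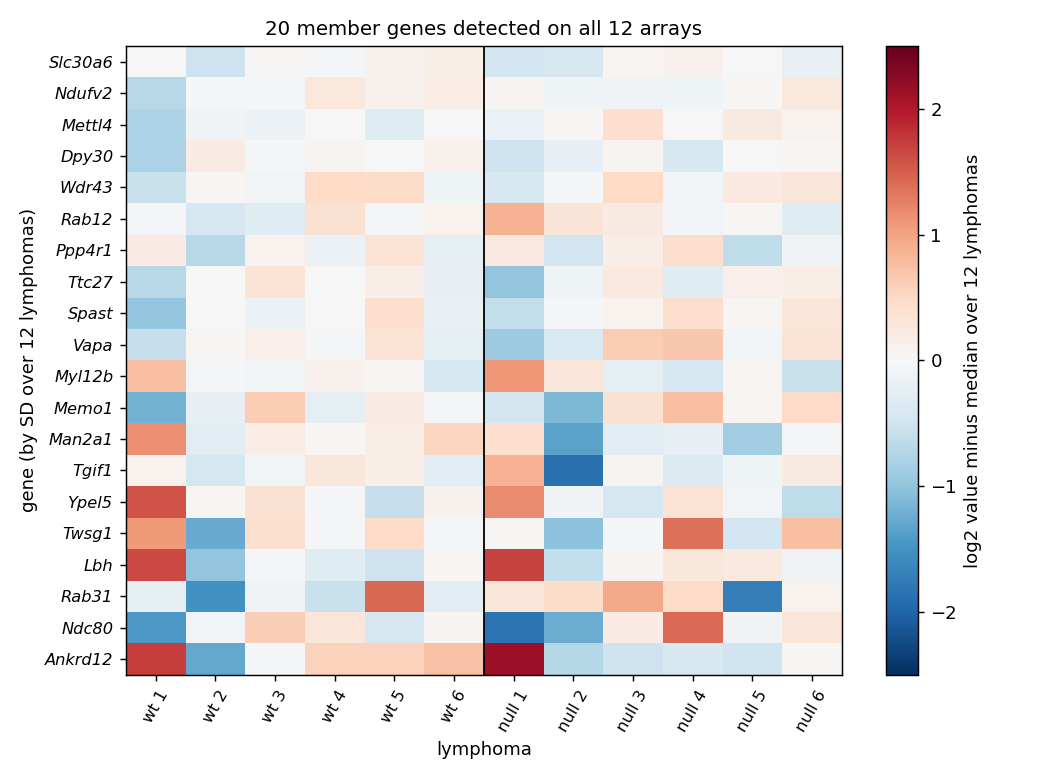
Log2 value minus the median over the 12 lymphomas (colour) for the probe with the highest mean in each of the 20 member genes detected on all arrays (one line of cells per gene, ordered by SD over the lymphomas) in each sample (x axis, wt for wildtype). Ankrd12, Lbh and Ypel5 are high and Ndc80 is low in wildtype replicate 1 and null replicate 1, and high and low cells occur in both genotypes.

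The number of CG in the promoter is a feature that the choice of genes did not use. RefSeq promoter windows were found for 42 of the 45 genes, not for Lama1, Ppp4r1 or Xdh, and for each gene the window with the most CG was taken. C030034I22Rik was the only member with 0 CG, as in the sequence printed above, and 5.40% of 27025 genes in the table had none. The 19 genes with a probe on all 12 arrays had a median of 33 CG in 300 bases (15 to 41). The 16 genes detected on 3 to 11 arrays had a median of 19.5 (0 to 56), and the 7 detected on 0 to 2 arrays a median of 15 (4 to 43). The median of all 27025 genes in the table was 8. Those genes were not matched to the members by gene type or detection, so nothing particular to the members is read from it. 6 members had fewer than 5 CG, among them Nlrc4, Myom1 and Capn13 with 2, and 0 of the 6 were detected on all arrays. These counts describe the printed windows and draw nothing about methylation, which was not measured here.

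**Figure D5:**
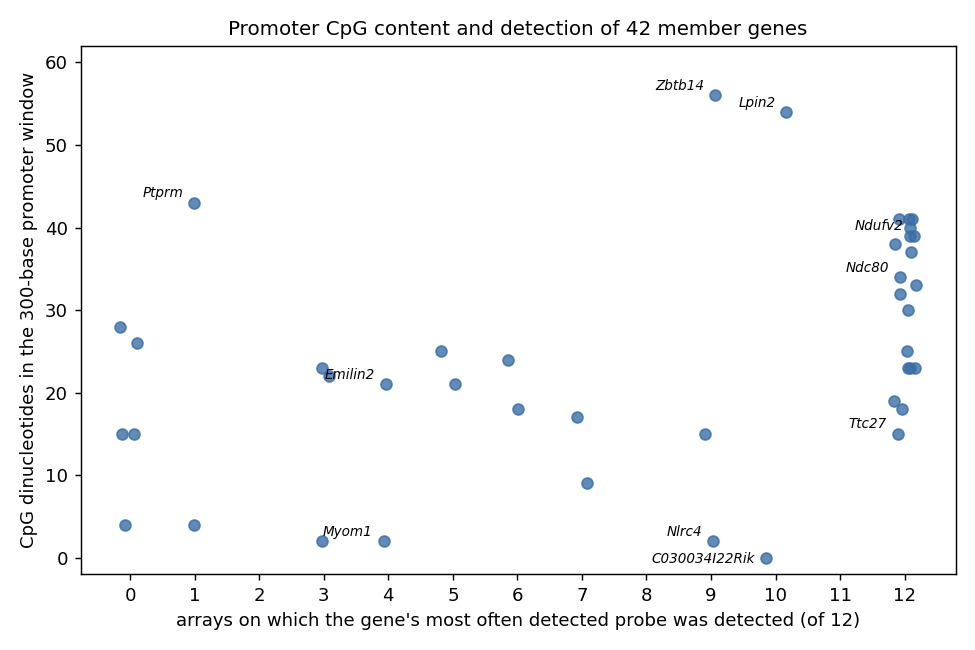
Number of CG dinucleotides in the 300-base promoter window (y axis) against the number of arrays on which the most often detected probe of the gene was detected (x axis, of 12, points moved sideways at random to part them), 1 point for each of 42 member genes. Genes detected on all 12 arrays have 15 to 41 CG, and C030034I22Rik is at 0.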

How the data were processed

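RNA of 12 sorted lymphomas was hybridised to Illumina MouseWG-6 version 2 BeadChips. The deposited intensity values are unnormalized mean bead intensities per probe, exported from GenomeStudio 1.6.0, per the file headers, with a bead count and a bead SD. The deposited detection values are a fraction, and a deposited table gives the detection p-value of each probe. The deposited normalized table holds log2 values, and the values computed here equalled it (largest difference 0). BeadStudio, limma 3.12.1 and R 2.15.1 are named in the submitters' processing notes.

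Background was corrected by normexp from the 936 negative controls, with an offset of 16, and arrays were quantile normalized and put on the log2 scale (neqc, limma 3.58.1, R 4.3.3). Probes with detection p under 0.05 on at least 3 arrays were tested with lmFit and eBayes without covariates, and p-values were adjusted by Benjamini-Hochberg over all tested probes. Probes of 1 gene were kept apart, and pairs were compared by exact permutation. The tests were checked on simulated data. Where no array of a group detected a probe, the bright mean was set against, per array, the higher of the lowest detected value and the probe's own.

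Values by lymphoma are given for probes with adjusted or unadjusted p under 0.05, the 6 with the smallest p in each direction, all probes of C030034I22Rik, Nlrc4 and Yipf4, genes with unequal pairs, and the 3 nearest tested genes on either side. Ehd3, Rasgrp3 and the other members with values were named after these were seen. The members and lists were chosen with earlier results of these data known. Alternatives covered background, scaling, detection filter, BeadChip, replicate block, array weights, moderation, 1 probe a gene and leaving out samples. 1 marker gene, and the list mean that needs it, is not reported here. The mean over 5 B cell markers was added after the data were seen.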

Additional observations from a re-analysis of the deposited data

Results flagged for a closer look

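In 9 of 114 groups of 6 values, 1 sample lay far from the others by Dixon's ratio of gap to range (critical value 0.625), a rate to read against the 1 in 20 that chance gives. 5 of the 9 concern wildtype replicate 1 or null replicate 1. Ndufv2 read 11.92 in wildtype replicate 1 against 12.58 to 12.88 in the rest of its group, and Dpy30 read 10.61 there against 11.38 to 11.62. The rarely detected Ypel5 probe ILMN_2951446 read 6.03 in the same sample against 4.31 to 4.72. In null replicate 1, Ankrd12 (ILMN_3072676) read 9.72 against 6.87 to 7.61, and Birc6 (ILMN_1227461) read 5.98 against 4.49 to 5.05. Slc30a6 read 7.67 in wildtype replicate 2 against 8.16 to 8.33. Galnt14 was detected in wildtype replicate 3 alone of its group, at 5.07 against 4.42 to 4.48. Rab31 read 8.08 in null replicate 5 against 9.88 to 10.74. The Ypel5 probe ILMN_1215341 read 6.26 in null replicate 6 against 7.91 to 8.78.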

How the results depend on the processing

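The called C030034I22Rik probe passed under every alternative except each BeadChip alone, where 0 member probes were called. Member probes with unadjusted p under 0.05 numbered 5, and 3 with median scaling, 8 with no detection filter, 2 on BeadChip 2 alone and 2 to 6 when 1 sample was left out (2 without wildtype replicate 3, 3 without null replicate 5). Calls over the whole array numbered 3, and 1 on BeadChip 1, 0 on BeadChip 2, 3 to 5 with 1 sample left out (5 without wildtype replicate 2) and 6 without replicates 1 and 2 of both groups. Probe pairs with adjusted p under 0.05 numbered 0 by permutation and 1 by limma over all pairs (adjusted p = 0.00974 for C030034I22Rik, added after seeing the data). Nothing is read from permutation of pairs within 1 BeadChip, since 3 against 3 cannot go below 0.1.

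Signs turned in members whose change was near 0 or split by BeadChip; the cause was not tested. On BeadChip 1 alone Lbh ILMN_2816180 was -0.061, Mettl4 ILMN_2743985 0.014, Myl12b ILMN_2710186 -0.41 and Ndc80 0.83. On BeadChip 2 alone Spast ILMN_2637784 was -0.090, Myl12b 0.49 (ILMN_2953531) and 0.19 (ILMN_2710185), Myom1 0.072, Wdr43 -0.26 and Ypel5 0.40, 0.52 and 0.013. Without background correction Myom1 was 0.0055, Ndc80 0.0092 and Ypel5 ILMN_1215341 0.0076. With median scaling Wdr43 was -0.019. With array weights Ndc80 was 0.11 and Ypel5 0.020 (ILMN_1215341) and 0.16 (ILMN_2951446). Without replicates 1 and 2 of both groups Rab12 was -0.054, Ndc80 0.31 and Ypel5 ILMN_2951446 0.38. With 1 sample left out, Mettl4 ILMN_2743985 ranged from -0.22 to 0.033, Myl12b ILMN_2953531 from -0.23 to 0.12, Myom1 from -0.12 to 0.12, Ndc80 from -0.38 to 0.27, Wdr43 from -0.072 to 0.15, and the 3 Ypel5 probes from -0.42 to 0.068, -0.19 to 0.31 and -0.18 to 0.18.

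Replicate numbers were not taken as pairs, since the labels give them no shared source and not every pair correlated over 0.1. Same-numbered samples correlated at -0.25 to 0.66, over 0.1 in 4 of 6 pairs, and 4 of 12 samples correlated best with their own number. With the replicate block 1 member probe was called (adjusted p = 0.00556), 6 had unadjusted p under 0.05 and 3 probes were called on the whole array. Signal over background is a limit, since 39 of 96 member probes were too rarely detected to test and the lowest detected log2 value of an array was 4.83 to 5.15.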
